A study of Mus musculus with 32 samples.

Results

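The cartilage and bone differentiation genes described here are 10 named mouse genes, Sox9, Sox5, Sox6, Acan, Chad, Runx2, Sp7, Alpl, Ibsp and Spp1, out of 25700 genes counted in every library. They were chosen by name, from their roles in forming cartilage and bone, with earlier results of these data known. They were read as CPM (the gene's counts relative to its library's TMM-scaled size) in all 32 libraries. The study asked what a damaged tendon core and the cells around it do to each other, and whether interleukin-6 (IL-6) from the core matters, using assembloids in which a mouse tail tendon core explant is clamped inside a collagen-1 hydrogel. The deposited samples hold 7 groups after 7 days of culture at 37 °C. Core explants came as WT core // cell-free, WT core // fibroblasts, WT core // macrophages, labelled-KO core // cell-free and labelled-KO core // fibroblasts, with 4 libraries each. The hydrogels around the WT and the labelled-KO cores of fibroblast assembloids gave 6 libraries each. Cores came from B6.129S2-Il6tm1Kopf/J mice aged 12 to 15 weeks, labelled Il-6+/+ (WT) or Il-6-/- (KO). The medium of every group held 10% serum, 200 µM ascorbic acid and, per the methods, 20 ng/ml macrophage-colony stimulating factor.

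Several features bound what these groups can show. A core library pooled 20 to 24 explants of 2 cm from a single mouse. A hydrogel library pooled 2 hydrogels and mixed cells that had left the core with the seeded fibroblasts. These fibroblasts were grown on plastic from digested Achilles tendons, with cells of 6 mice mixed together. They were used at passage 2 to 4 and are called progenitors in the labels. Hydrogel and core thus also differ in the tendon of origin and in growth on plastic, which cannot be told apart from the compartment. The seeded cells were WT in every hydrogel, so in a labelled-KO assembloid only the core carries the KO label. Neither the labels nor the methods say where the macrophages came from. In such bulk samples, fewer cells of a type and less RNA per cell cannot be told apart. Cores cultured with fibroblasts may also hold seeded cells that moved in, since the study tracked such movement in separate assembloids. The part of such cells in the core levels was not tested. The p-values below measure the spread between these libraries.

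Cartilage forms when mesenchymal cells turn on SOX9, which with its partners SOX5 and SOX6 drives the genes of cartilage matrix such as aggrecan. Bone formation uses RUNX2 and, downstream of it, SP7 (osterix), after which osteoblasts make alkaline phosphatase and the acidic phosphoproteins bone sialoprotein and osteopontin that sit in mineralizing matrix. Tendon keeps both programmes low over most of its length, uses them where it attaches to bone or is compressed, and can take them up ectopically in injured or diseased tissue. Osteopontin is not particular to bone, since macrophages and osteoclasts also make it.

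Libraries held 20.4 M to 59.9 M counts. Il6 itself was counted in all libraries, at 5.63 to 40.0 CPM in the 14 labelled-KO libraries (median 12.9) and 1.90 to 13.6 CPM in the 18 WT libraries (median 8.03). These gene-level counts go against the label, but they do not show where in the gene the reads lie, so they check neither the allele nor the protein, which the study measured in separate cultures not analysed here, and KO is written as a label throughout. Tendon markers summed to 26282 to 77385 CPM over 12 genes, with none at 0 in any library. Macrophage markers were also high everywhere, at 3296 to 39009.8 CPM over 18 genes, again with none at 0 in any library. The macrophage group was not the richest in them, with 7581 to 16359 CPM against 13294 to 17713 CPM in WT core // cell-free.

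The promoters of Runx2, Alpl, Ibsp and Spp1 are printed because these genes stand for the regulator and the products of the bone programme, and because 3 of them were the most abundant of the set per length in the WT hydrogels. Each is the 250 bases before the RefSeq start on GRCm38.p6, 5′ to 3′ on the gene's own strand, with capitals for the RUNX core ACCACA, the GC box GGGCGG and the CCAAT box, on either strand. Runx2 is at chr17:44814628-44814877 (minus strand), Alpl at chr4:137796385-137796634 (minus strand, the first of 2 entries), Ibsp at chr5:104299037-104299286 (plus strand) and Spp1 at chr5:104434861-104435110 (plus strand, the first of 2 entries).
Runx2: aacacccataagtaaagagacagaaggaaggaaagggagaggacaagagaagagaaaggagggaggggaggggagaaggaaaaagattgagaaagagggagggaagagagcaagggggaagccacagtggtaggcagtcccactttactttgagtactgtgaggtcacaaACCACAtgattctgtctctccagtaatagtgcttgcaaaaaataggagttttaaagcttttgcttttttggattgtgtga
Alpl: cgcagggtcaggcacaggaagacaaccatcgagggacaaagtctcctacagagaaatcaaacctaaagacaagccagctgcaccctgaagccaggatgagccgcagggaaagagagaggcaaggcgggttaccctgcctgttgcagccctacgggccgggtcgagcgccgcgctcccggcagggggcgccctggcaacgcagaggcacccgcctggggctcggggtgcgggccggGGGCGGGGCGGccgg
Ibsp: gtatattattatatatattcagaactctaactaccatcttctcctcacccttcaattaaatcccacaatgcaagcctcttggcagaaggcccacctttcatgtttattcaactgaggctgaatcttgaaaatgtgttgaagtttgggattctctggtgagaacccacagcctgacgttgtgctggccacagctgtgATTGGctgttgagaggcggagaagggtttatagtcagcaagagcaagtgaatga
Spp1: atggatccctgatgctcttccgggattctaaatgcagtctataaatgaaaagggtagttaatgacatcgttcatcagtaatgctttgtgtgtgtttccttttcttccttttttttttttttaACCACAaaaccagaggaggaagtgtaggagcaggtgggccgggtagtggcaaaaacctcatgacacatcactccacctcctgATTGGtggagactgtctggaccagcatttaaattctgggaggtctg
The Runx2 window held ACCACA 80 to 75 bases before its start, and the Spp1 window held it 128 to 123 bases before. The Alpl window held overlapping GC boxes, 15 to 10 and 10 to 5 bases before the start. Ibsp held a CCAAT box read on the other strand, ATTGG, at 54 to 50 bases, and Spp1 held one at 46 to 42 bases. Ibsp and Spp1 are neighbours on chromosome 5, with starts 135824 bases apart. Of 32851 mouse promoter windows of this length, 14% held ACCACA, 32.7% GGGCGG and 33.8% CCAAT, so these matches are common letters and are given as a description. Entries were found for 8 of the 10 genes, all but Sox9 and Sp7.

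All 10 genes were counted, but not all could be read in every group. With fewer than 10 counts in the median library of a group taken as too low to read, Sp7 was too low in all 5 core groups and Ibsp in 4 of the 5, the exception being WT core // fibroblasts. The other 8 genes were readable in all 7 groups, and all 10 in both hydrogel groups. Spp1 alone took 0.306% to 1.16% of all counts in cores and 1.2% to 2.35% in hydrogels.

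**Figure D1:**
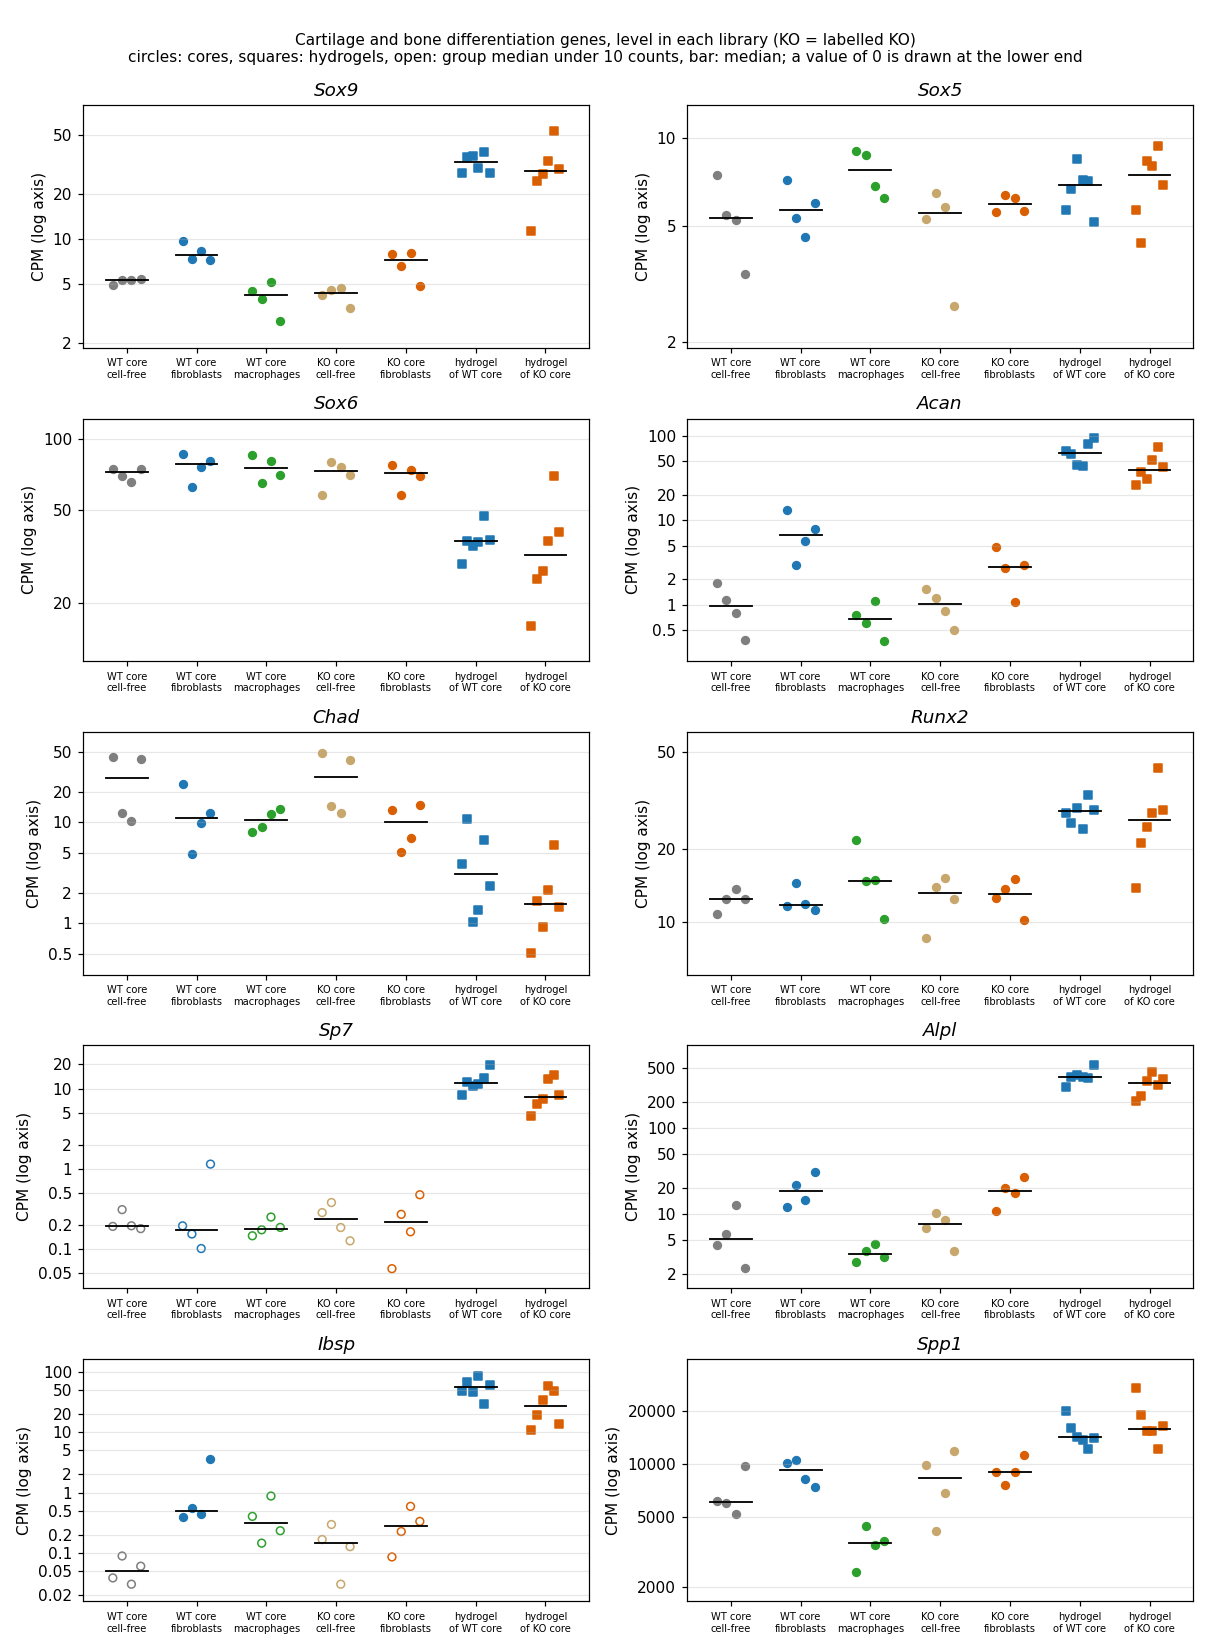
CPM of each of the 10 genes in every library (log axis), grouped by the 5 core groups and 2 hydrogel groups, with a bar at each group's median, open symbols where the group's median count is under 10 and a value of 0 drawn at 0.03. The 12 hydrogel libraries lie above the 20 core libraries for Sox9, Acan, Sp7, Alpl, Ibsp and Spp1. How many of all genes separate in this way was not counted, so this is not read as particular to these genes. Between WT hydrogel and WT core // fibroblasts 42.8% of all genes were called.

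Levels of different genes can be set side by side only per length of transcript. In CPM per kilobase, mean ± SD over the 4 libraries of WT core // fibroblasts, Spp1 led with 6037 ± 1000.1, followed at a distance by Sox6 (8.80 ± 1.16), Alpl (7.80 ± 3.30) and Chad (7.59 ± 4.81), 3 genes whose SDs overlap. Sox9 (1.97 ± 0.268), Runx2 (1.90 ± 0.230), Acan (1.01 ± 0.587) and Sox5 (0.797 ± 0.152) were lower. Ibsp (0.597 ± 0.750) had an SD above its mean, and Sp7 was too low to read. In the 6 WT hydrogels Alpl (159 ± 29.6 CPM per kilobase) came next after Spp1 (10009.7 ± 1801), then Ibsp (27.4 ± 9.49), Acan (8.83 ± 2.64) and Sox9 (7.92 ± 1.15), the last pair within their SDs. Runx2 (4.35 ± 0.482), Sox6 (4.27 ± 0.661), Sp7 (4.06 ± 1.26) and Chad (2.58 ± 2.23) lay together below them, and Sox5 (0.927 ± 0.164) was the lowest.

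**Figure D2:**
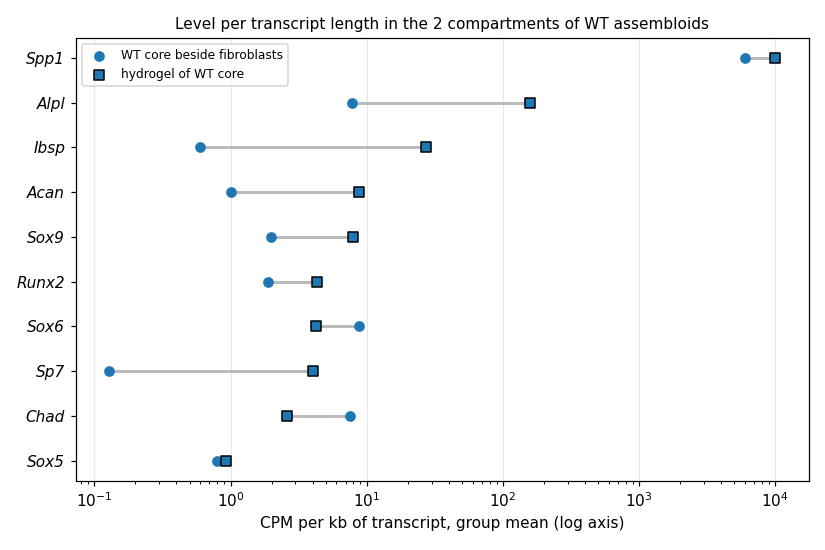
Mean CPM per kilobase of transcript (log axis) of the 10 genes in WT core // fibroblasts (circles, 4 libraries) and in the hydrogels of WT fibroblast assembloids (squares, 6 libraries). Spp1 stands far above the rest in both, Alpl, Ibsp and Sp7 are farthest apart between them, and only Sox6 and Chad are lower in the hydrogel. The Sp7 circle is of a group too low to read, and the Ibsp circle leans on core replicate 4.

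Tests used edgeR's quasi-likelihood fit over all genes, with a gene called at an adjusted p (Benjamini-Hochberg) under 0.05 and a log2 fold change beyond 0.5. For both comparisons of labelled KO with WT in fibroblast assembloids, the study's own looser rule of an unadjusted p under 0.05 was used with the same fold threshold. In WT cores, fibroblasts against cell-free, 3 of 9 tested members were higher (Sox9, Acan, Ibsp) where 1.51% of all tested genes were (2.61% in either direction). Ibsp was too low to read in the cell-free group and was tested only because the fibroblast libraries passed the filter on low counts, so its call adds no support. With macrophages against fibroblasts, 4 of 9 were lower (Sox9, Acan, Alpl, Spp1) where 5.5% of all genes were (10.8% in either direction). With macrophages against cell-free cores, 0 of 8 were called in either direction where 4.6% of all genes were.

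In labelled-KO cores, fibroblasts against cell-free gave 0 of 8 members called by edgeR where 0.432% of all genes were. Labelled KO against WT gave 0 of 8 in cell-free cores (0% of all genes in either direction), 2 of 9 lower in cores with fibroblasts (Acan, Ibsp; 0.883% of all genes lower and 2.44% in either direction by the looser rule) and 1 of 10 lower in hydrogels (Acan; 0.25% lower and 0.755% in either direction by that rule). In the cores with fibroblasts, Ibsp was too low to read under the KO label. The interaction of genotype label and fibroblasts in cores called 0 of 9 members and 0% of all genes. By an unadjusted p under 0.05 with a log2 change beyond 0.5, macrophages against cell-free gave 3 members, beside 1694 of 16441 tested genes. Fibroblasts in labelled-KO cores gave 4 members, beside 1140 of 15965 genes. Genotype in cell-free cores gave 0 members, beside 199 of 16065 genes, and the interaction gave 1, beside 294 of 16772. DESeq2 at the adjusted threshold called 1, 3, 0 and 0 members in the same order, and in each it also called more of all genes than edgeR.

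Hydrogel against core of fibroblast assembloids gave the most calls. Each fit set 6 hydrogel against 4 core libraries of a label without pairing. Only 4 of the 6 hydrogel libraries had a sequenced core of the same code. In WT assembloids 7 of 10 members were higher in the hydrogel (Sox9, Acan, Runx2, Sp7, Alpl, Ibsp, Spp1) and 2 lower (Sox6, Chad), where 18.1% of all genes were higher and 24.7% lower (42.8% in either direction). The labelled-KO assembloids also gave 7 higher and 2 lower, with 17% and 24.6% of all genes (41.6% in either direction). Sp7 under both labels and Ibsp in labelled KO were too low to read in the core. They entered these fits through the hydrogel libraries, where they are high, so their calls add no support. The median log2 difference over the members was 1.56 in WT and 1.56 in labelled KO, beside medians close to 0 over all tested genes. The comparisons share libraries, so their calls are set side by side and not counted as repeats of each other. Where groups are said below not to overlap, the share of all genes without overlap was not counted.

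**Figure D3:**
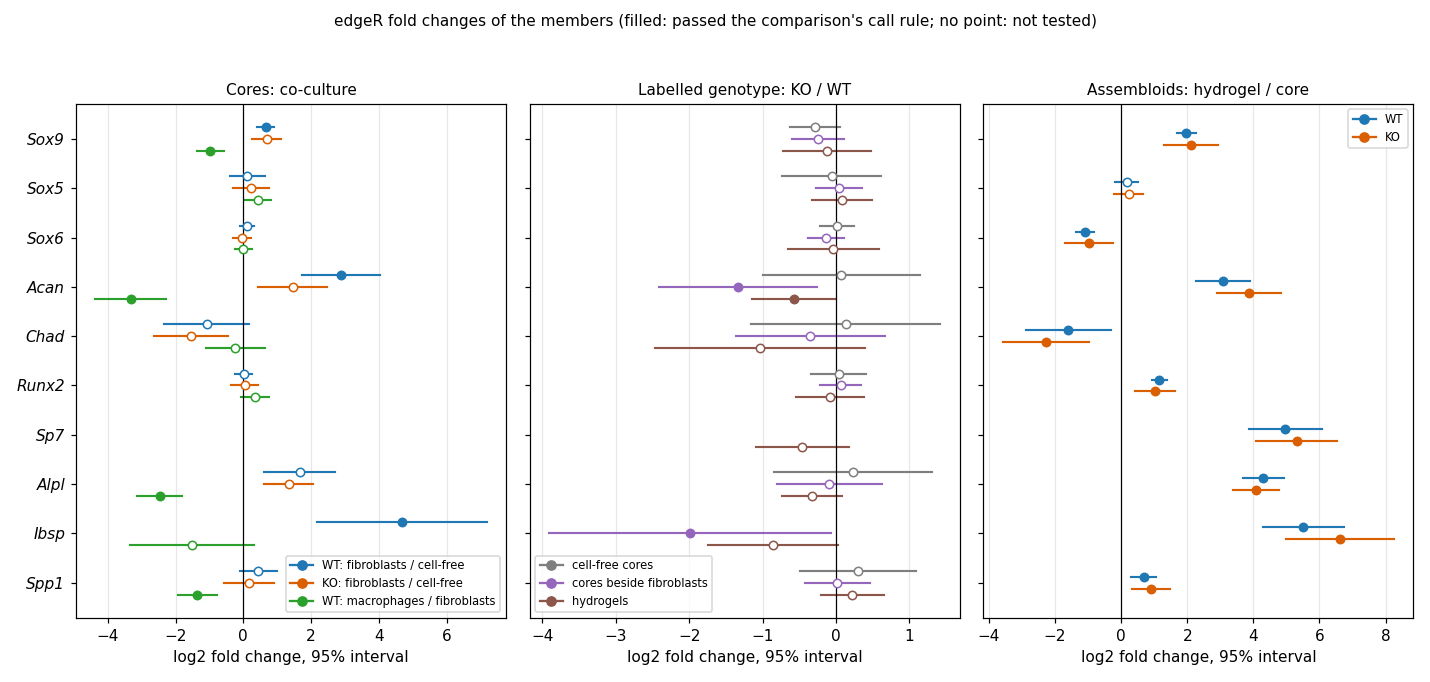
Log2 fold change with 95% confidence interval of each tested member for co-culture in cores, for labelled KO against WT and for hydrogel against core, with filled points where the comparison's rule was passed. The hydrogel-against-core panels show the largest differences, and the intervals of the genotype-label comparisons mostly cross 0.

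Sox9, the regulator that starts and maintains cartilage differentiation, was higher in cores that had fibroblasts around them. In the 4 libraries of WT core // cell-free it was at 4.92, 5.25, 5.31 and 5.37 CPM, and in WT core // fibroblasts at 9.62, 7.33, 8.36 and 7.26 CPM. Every fibroblast library lay above every cell-free library, with means of 8.14 ± 1.11 and 5.22 ± 0.20 CPM (SD, n = 4 each). The change was 1.58-fold (log2 fold change 0.66, SE 0.11, adjusted p = 0.0206 with edgeR, exact two-sided permutation p = 0.0286, the smallest that 4 against 4 libraries allow). The call was lost without any 1 of WT core // cell-free replicate 1 (adjusted p = 0.0592) and WT core // fibroblasts replicates 1 (0.0711) and 3 (0.0765), with the fold change at 0.57 to 0.71 on the log2 scale whichever library was left out.

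The labelled-KO cores held 4.16, 4.54, 4.70 and 3.41 CPM without and 7.91, 6.61, 8.01 and 4.78 CPM with fibroblasts. The groups did not overlap here either, and the log2 fold change of 0.69 (SE 0.19) had an edgeR adjusted p of 0.161 and an exact permutation p of 0.0286, so it did not pass the rule, although DESeq2 called it (adjusted p = 0.0332). The test of whether the response differs by label gave 0.03 (SE 0.22, 95% interval -0.43 to 0.50) for Sox9. With macrophages Sox9 was at 4.49, 3.95, 5.12 and 2.78 CPM, below every WT core // fibroblasts library (log2 fold change -0.97, SE 0.18, adjusted p = 0.00829). Among cell-free cores the labelled-KO libraries all lay below the WT libraries by a small margin (log2 fold change -0.29, SE 0.15, edgeR adjusted p = 1.00, exact permutation p = 0.0286). Beside fibroblasts the genotype labels overlapped (log2 difference -0.25, SE 0.16).

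In the hydrogels Sox9 was higher still, with a low of 27.7, a median of 32.9 and a high of 38.8 CPM in WT and a low of 11.3, a median of 28.6 and a high of 53.2 CPM in labelled KO. All 12 hydrogel libraries lay above all 20 core libraries, whose range was 2.78 to 9.62 CPM. Against the fibroblast cores of the same label, the hydrogel was 3.90-fold higher in WT (log2 fold change 1.96, SE 0.13, adjusted p = 4.37e-07) and 4.29-fold higher in labelled KO (log2 fold change 2.10, SE 0.37, adjusted p = 0.000796). The labelled-KO hydrogels spread more widely than the WT hydrogels and enclosed them, so no difference by label could be read (log2 difference -0.12, 95% interval -0.72 to 0.48).

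The partners of SOX9 followed other patterns. Sox6, which acts with SOX5 at cartilage enhancers and is also used in muscle and other tissues, was at 57.9 to 86.3 CPM over the 20 core libraries with all 5 core groups overlapping. Its log2 difference between WT core // fibroblasts and WT core // cell-free was 0.12 with a 95% interval of -0.09 to 0.33. In the hydrogels it was lower, with a low of 29.4, a median of 36.7 and a high of 47.1 CPM in WT and a low of 16.1, a median of 32.3 and a high of 69.2 CPM in labelled KO. No WT hydrogel reached the lowest WT core // fibroblasts library (62.7 to 86.3 CPM), and the fall was called in WT (log2 fold change -1.09, SE 0.12, adjusted p = 1.23e-05). In labelled KO the highest hydrogel lay inside the core range of 57.9 to 77.7 CPM, the change was -0.98 (SE 0.33, edgeR adjusted p = 0.0250), and the call was lost without any 1 of labelled-KO core // fibroblasts replicates 1, 3 and 4 and labelled-KO hydrogel replicates 1, 3 and 6 (adjusted p up to 0.0848).

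Sox5 was low and even, at 2.65 to 9.01 CPM in cores and 4.35 to 9.36 CPM in hydrogels. It was the only member with no call between hydrogel and core under either label (log2 difference 0.17, 95% interval -0.18 to 0.52 in WT, and 0.22, -0.22 to 0.67 in labelled KO). Its highest values in cores were with macrophages, at 9.01, 8.71, 6.87 and 6.22 CPM against 7.44, 5.43, 5.25 and 3.43 CPM in cell-free cores. These groups overlapped and the difference was not called (log2 fold change 0.53, SE 0.22, adjusted p = 0.194), but it passed with the replicate number as a block (log2 fold change 0.55, adjusted p = 0.0499).

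Acan encodes aggrecan, the large proteoglycan that holds water in cartilage and in compressed tendon. It was low in cores without fibroblasts and higher in WT cores with them. In WT core // cell-free it was at 1.79, 1.15, 0.810 and 0.388 CPM, and in WT core // fibroblasts at 13.1, 2.95, 5.70 and 7.86 CPM. Every fibroblast library was above every cell-free library, although replicate 1 with fibroblasts was far above replicate 2. The change was 7.40-fold (log2 fold change 2.89, SE 0.52, 95% interval 1.74 to 4.04, adjusted p = 0.0223 with edgeR, exact permutation p = 0.0286). Leaving out WT core // fibroblasts replicates 1, 3 or 4 took the adjusted p to 0.0647, 0.0636 and 0.0505, with log2 fold changes from 2.46 to 3.30 over all such fits.

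Labelled-KO cores held 1.56, 1.22, 0.850 and 0.505 CPM of Acan without and 4.91, 2.70, 1.08 and 2.98 CPM with fibroblasts. These groups overlapped, since replicate 3 with fibroblasts lay below replicates 1 and 2 without, and the log2 fold change of 1.45 (SE 0.46) had an adjusted p of 0.225 with edgeR. Same-numbered libraries all pointed upward, in 4 of 4 numbers here and 4 of 4 in WT. Against WT core // fibroblasts, the labelled-KO cores were lower by the study's unadjusted rule (log2 fold change -1.34, SE 0.48, unadjusted p = 0.0196, adjusted p = 0.536 with edgeR), yet the groups overlapped and an exact permutation test gave p = 0.0857. Without WT core // fibroblasts replicate 1 this call was lost (log2 difference -0.91, adjusted p = 0.680 with edgeR). The test of whether the response to fibroblasts differs by label gave -1.44 (SE 0.75, adjusted p = 0.985).

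With macrophages Acan was at 0.766, 0.606, 1.12 and 0.371 CPM, below every WT core // fibroblasts library (log2 fold change -3.32, SE 0.47, adjusted p = 0.00299) and within the spread of cell-free cores (log2 difference -0.47, 95% interval -1.50 to 0.56). The hydrogels were well above all cores, with a low of 43.7, a median of 63.4 and a high of 93.4 CPM in WT and a low of 26.1, a median of 39.9 and a high of 73.4 CPM in labelled KO. Against the fibroblast cores this was a log2 difference of 3.08 (SE 0.37, adjusted p = 1.96e-05) in WT and 3.86 (SE 0.44, adjusted p = 6.88e-05) in labelled KO. All 12 hydrogels lay above the highest core value of 13.1 CPM.

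Chad, which encodes the collagen-binding matrix protein chondroadherin of cartilage and tendon, had lower values beside fibroblasts than the same-numbered cell-free cores, whose replicates differed widely. In WT core // cell-free it was at 44.2, 12.5, 10.3 and 42.7 CPM, and in labelled-KO core // cell-free at 48.3, 14.6, 12.4 and 41.6 CPM. Replicates 1 and 4 of the cell-free cores were high and replicates 2 and 3 low under both labels, and the titles place replicates 2 and 3 in the same run code (152) and replicates 1 and 4 in codes 150 and 154. The part of the run or the mouse in this split was not tested. With fibroblasts the values were 23.9, 4.88, 9.81 and 12.4 CPM in WT and 13.3, 5.04, 6.97 and 14.9 CPM in labelled KO, and with macrophages 8.06, 9.12, 12.2 and 13.7 CPM, where replicate 1 was the lowest.

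Each library with fibroblasts was below the cell-free library of the same number, in 4 of 4 numbers in WT and 4 of 4 in labelled KO. The unblocked fits called neither (WT log2 difference -1.09, SE 0.56, adjusted p = 0.296, and labelled KO -1.56, SE 0.49, adjusted p = 0.224). In labelled KO, where same-numbered libraries deviated together across genes, the fit with the replicate number as a block called the fall (log2 difference -1.45, adjusted p = 0.00557). In WT the numbers did not pass that check. With macrophages against cell-free cores the log2 difference was -1.34 (SE 0.46, adjusted p = 0.124), and it passed the rule without WT core // cell-free replicate 3 (-1.62, adjusted p = 0.0426).

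**Figure D4:**
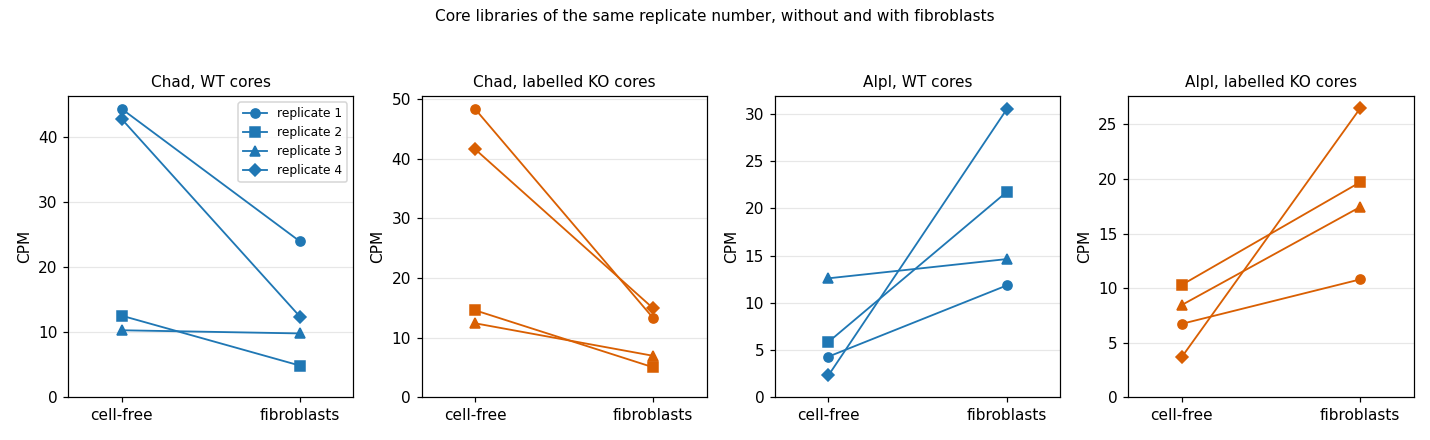
CPM of Chad and Alpl in cell-free and fibroblast cores, WT and labelled KO, with lines joining the 4 libraries of each label that share a replicate number. Every Chad line goes down from cell-free to fibroblasts and every Alpl line goes up.

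Chad was lower again in the hydrogels, with a low of 1.04, a median of 3.11 and a high of 10.7 CPM in WT and a low of 0.506, a median of 1.54 and a high of 5.98 CPM in labelled KO. The ranges met those of the cores (4.88 to 23.9 CPM in WT core // fibroblasts). The fall was called in WT (log2 fold change -1.60, SE 0.59, adjusted p = 0.0302, exact permutation p = 0.0524) and in labelled KO (log2 fold change -2.28, SE 0.59, adjusted p = 0.00722, exact permutation p = 0.0143). The WT call was lost without WT core // fibroblasts replicates 1 or 4 or WT hydrogel replicates 3, 4 or 6, and the change was then as small as -1.10 (adjusted p = 0.140, without the first of these). Acan and Chad, both matrix genes of cartilage, thus moved in opposite directions between core and hydrogel.

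Runx2, the regulator that commits cells to the osteoblast lineage, had no call between core groups in any tested comparison. It was at 10.7, 12.4, 13.7 and 12.4 CPM in WT core // cell-free and 11.6, 14.5, 11.9 and 11.2 CPM in WT core // fibroblasts, for a log2 difference of 0.01 with a 95% interval of -0.24 to 0.26. The highest core value was 21.7 CPM, in WT core // macrophages replicate 1, and the other macrophage cores at 10.3 to 14.8 CPM lay among the rest. The hydrogels held a low of 24.1, a median of 28.4 and a high of 33.0 CPM in WT, above all WT cores with fibroblasts or without, and a low of 13.7, a median of 26.3 and a high of 42.7 CPM in labelled KO. The hydrogel was 2.22-fold higher than the core in WT (log2 fold change 1.15, SE 0.11, adjusted p = 3.17e-06). In labelled KO it was 2.02-fold higher (log2 fold change 1.02, SE 0.27, adjusted p = 0.00853), with 1 hydrogel library, replicate 1 at 13.7 CPM, inside the core range of 10.2 to 15 CPM.

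Sp7, which encodes osterix and is needed for osteoblasts to mature, was too low to read in cores and readable in hydrogels. Core libraries held 5, 7, 6 and 6 counts in WT core // cell-free, 7, 5, 3 and 34 in WT core // fibroblasts and 2, 6, 5 and 10 in labelled-KO core // fibroblasts. The 34 counts of WT core // fibroblasts replicate 4 (1.14 CPM) stood above all other core libraries. Hydrogels held a low of 8.34, a median of 11.6 and a high of 19.8 CPM in WT and a low of 4.49, a median of 7.82 and a high of 14.8 CPM in labelled KO, all above every core library. Pooled over libraries, the WT hydrogels held 32.3 times the level of WT core // fibroblasts (95% counting interval 24.4 to 43.8, 2900 against 49 counts), and 81.1 times without that replicate (49.1 to 145). In labelled KO the ratio was 42.0 (27.9 to 66.5, 1743 against 23 counts). These intervals cover counting error only. Over libraries edgeR gave log2 differences of 4.96 (SE 0.51, adjusted p = 6.1e-06) in WT and 5.31 (SE 0.56, adjusted p = 4.6e-05) in labelled KO. Sp7 passed the filter on low counts in these fits through the hydrogel libraries, where it is high, so these p-values are given as a description.

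Alpl encodes tissue-nonspecific alkaline phosphatase, which removes the mineral inhibitor pyrophosphate. In WT cores it was at 4.31, 5.87, 12.6 and 2.33 CPM without and 11.8, 21.7, 14.6 and 30.5 CPM with fibroblasts. Cell-free replicate 3 reached into the fibroblast range and the other 3 did not, the log2 fold change was 1.66 (SE 0.47), and the edgeR adjusted p of 0.0759 missed the threshold. Without that library it passed (2.28, adjusted p = 0.0226), and DESeq2 called it with all libraries (adjusted p = 0.0363). In labelled-KO cores the values were 6.74, 10.3, 8.47 and 3.70 CPM without and 10.8, 19.7, 17.4 and 26.5 CPM with fibroblasts. There the groups did not overlap, and the log2 fold change was 1.34 (SE 0.33, adjusted p = 0.115, exact permutation p = 0.0286). Without labelled-KO core // cell-free replicate 2 this passed as well (adjusted p = 0.0435).

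With macrophages Alpl was at 2.74, 3.63, 4.46 and 3.11 CPM, and the difference from WT core // fibroblasts was called (log2 fold change -2.47, SE 0.29, adjusted p = 0.00174), with no overlap. Against cell-free cores it was -0.83 (95% interval -1.80 to 0.13) and not called. In hydrogels Alpl was among the most abundant of the set, with a low of 303, a median of 389 and a high of 534 CPM in WT and a low of 208, a median of 331 and a high of 444 CPM in labelled KO. The lowest hydrogel lay far above the highest core at 30.5 CPM. Hydrogel against core was 19.8-fold in WT (log2 fold change 4.31, SE 0.28, adjusted p = 3.69e-07) and 16.9-fold in labelled KO (log2 fold change 4.08, SE 0.32, adjusted p = 1.38e-05).

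Ibsp encodes bone sialoprotein, a phosphoprotein of mineralizing matrix that is usually read as a late osteoblast gene. WT core // cell-free libraries held 1, 2, 0 and 2 counts and WT core // fibroblasts 14, 18, 13 and 106 counts, the latter 0.388, 0.552, 0.438 and 3.56 CPM. All 4 fibroblast libraries were above all 4 cell-free libraries, with replicate 4 far from the other 3. The pooled level was 26.7 times higher with fibroblasts (95% counting interval 11.2 to 83.4), and 10.4 times (4.13 to 33.5) without replicate 4. edgeR called it with a fitted log2 fold change of 4.68 (SE 1.12, adjusted p = 0.0478, exact permutation p = 0.0286), a value that rests on 5 counts in the cell-free group. Ibsp passed the filter on low counts through the fibroblast libraries, where it is high. The call sat close to the threshold and was lost in 6 of 8 fits that each left out 1 library, namely without any 1 of the 4 cell-free replicates or WT core // fibroblasts replicates 1 or 3 (adjusted p 0.0336 to 0.114 over the 8).

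Labelled-KO cores with fibroblasts held 3, 5, 18 and 7 counts of Ibsp and those without 7, 7, 0 and 3. Against WT core // fibroblasts the labelled-KO cores were lower by the unadjusted rule (log2 fold change -1.99, SE 0.86, unadjusted p = 0.0436, adjusted p = 0.555 with edgeR), the groups overlapped, and the exact permutation p was 0.143. Without WT core // fibroblasts replicate 4 the log2 difference was -0.58 (adjusted p = 0.791 with edgeR) and no longer passed that rule, and leaving out labelled-KO replicates 1, 2 or 4 also ended the call. With macrophages there were 11, 5, 28 and 5 counts, 9.59 times the pooled cell-free level (95% counting interval 3.84 to 30.9), with no overlap between the groups (exact two-sided permutation p = 0.0286, the smallest that 4 against 4 libraries allow) and no edgeR fit, since the gene did not pass the filter on low counts. Both of these groups were too low to read. Of the 49 counts with macrophages, 28 came from replicate 3, and the interval covers counting error only. The test of whether the response to fibroblasts differs by label gave -3.64 (SE 1.54, adjusted p = 0.985). WT core // fibroblasts replicate 4 had the highest Ibsp, Sp7 and Alpl of all 20 cores, with a Runx2 of 11.2 CPM, the lowest of its group.

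In the hydrogels Ibsp was plainly read, with a low of 29.1, a median of 55.6 and a high of 85.6 CPM in WT and a low of 10.7, a median of 27.2 and a high of 58.2 CPM in labelled KO, and no hydrogel overlapped any core. The pooled level was 51.3 times that of WT core // fibroblasts (95% counting interval 43.7 to 60.7) and 132 times without core replicate 4 (98.7 to 181). In labelled KO it was 98.1 times (69.8 to 143). edgeR gave log2 differences of 5.51 (SE 0.56, adjusted p = 6.22e-06) in WT and 6.62 (SE 0.74, adjusted p = 6.13e-05) in labelled KO. In labelled KO the core was too low to read and Ibsp passed the filter on low counts through the hydrogel libraries, so that p-value is given as a description.

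Spp1, which encodes osteopontin, a mineral-binding and cell-adhesive phosphoprotein, was by far the most abundant member in every group. WT core // cell-free held 6179, 6032, 5181 and 9786 CPM, WT core // fibroblasts 10146, 10563, 8293 and 7388 CPM and WT core // macrophages 2430.4, 4482, 3463 and 3664 CPM. The macrophage cores were all below the other WT cores. The fall was called against fibroblasts (log2 fold change -1.36, SE 0.26, adjusted p = 0.00923) and missed the threshold against cell-free (log2 fold change -0.94, SE 0.29, edgeR adjusted p = 0.0943, exact permutation p = 0.0286). DESeq2 called the latter (adjusted p = 0.00217). Fibroblasts against cell-free gave 0.44 (SE 0.24, adjusted p = 0.338) in WT, and in labelled KO, with 9892, 4159.8, 6872 and 11856 CPM without and 9069, 7583, 9029 and 11238 CPM with fibroblasts, 0.16 (95% interval -0.57 to 0.90).

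Hydrogels held a low of 12254, a median of 14260.5 and a high of 20054 CPM of Spp1 in WT and a low of 12158, a median of 15969 and a high of 27102 CPM in labelled KO, all above the highest core at 11856 CPM. Hydrogel against fibroblast core was a modest 1.61-fold in WT (log2 fold change 0.68, SE 0.18, adjusted p = 0.00417) and 1.87-fold in labelled KO (log2 fold change 0.90, SE 0.27, adjusted p = 0.0141), next to the far larger differences of Alpl, Ibsp and Sp7. Macrophage marker sums were 12548 to 22661 CPM in WT hydrogels against 11742 to 12798 CPM in WT core // fibroblasts, with 11 of 18 markers higher and 0 lower. In labelled KO 0 of 18 passed in either direction, although all 18 had positive log2 differences (median 0.55, and 0.52 in WT). Over all genes 18.1% were higher in WT hydrogels, and 41.6% were called in either direction in labelled KO. The part of macrophages in the Spp1 result was not tested.

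Other cell-type markers moved beside these results. Between WT core // fibroblasts and WT core // cell-free, macrophage marker sums did not overlap (11742 to 12798 against 13294 to 17713 CPM, with 2 of 18 markers called lower), so the share of macrophages and the presence of fibroblasts cannot be told apart. Of 9 osteoclast markers 4 were higher with fibroblasts, where 1.51% of all genes were, Dcstamp by 2.41, Acp5 by 2.22, Ocstamp by 1.92 and Mmp9 by 1.43 on the log2 scale, with summed levels of 318 to 665 against 257 to 411 CPM. Tendon markers gave 2 of 12 higher there (41003 to 76001 against 35283 to 57606 CPM). In WT hydrogels against core 6 of 7 Schwann cell markers, 5 of 7 smooth muscle and pericyte markers and 5 of 9 osteoclast markers were higher, while 7 of 12 tendon markers were lower, beside 18.1% of all genes higher and 24.7% lower. The part of these cells in the members' differences was not tested.

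The wider cartilage and bone pathways, as lists of other genes, held 5 calls among 74 tested genes (6.76%) with fibroblasts against cell-free in WT cores, where 2.61% of all genes were called. The cartilage matrix genes gave 0 higher and 0 lower of 14 tested, cartilage regulators 0 higher and 0 lower of 8, bone matrix and mineralization genes 1 higher and 1 lower of 17, bone regulators 0 higher and 1 lower of 10 and the bone morphogenetic protein (BMP) pathway 0 higher and 2 lower of 25. The median log2 changes of these lists were 0.20, 0.05, -0.09, 0.19 and -0.07, beside -0.02 over all tested genes. The calls were Mgp, an inhibitor of calcification, higher by 1.28, and the transporter gene Abcc6 (-0.88), the regulator Twist2 (-0.78), the BMP antagonist Nog (-1.28) and the BMP signal transducer Smad9 (-0.66), all lower on the log2 scale. In labelled KO edgeR called 0 of the 77 genes of these lists in the same contrast (0.432% of all genes). Of these 77 genes, 20 had an unadjusted p under 0.05, beside 1863 of 15965 tested genes.

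With macrophages against fibroblasts the lists held 11 calls among 76 tested genes (14.5%), beside 10.8% of all genes. Nog (1.35), Twist2 (0.90) and Abcc6 (0.70) were higher and Mgp lower (-1.71), in lists with 1 higher and 1 lower of 15 (cartilage matrix), 1 higher and 0 lower of 8 (cartilage regulators), 3 higher and 2 lower of 17 (bone matrix), 1 higher and 0 lower of 10 (bone regulators) and 1 higher and 1 lower of 26 (BMP pathway). Both contrasts share the WT core // fibroblasts libraries. With macrophages against cell-free cores the same lists gave 0 higher and 0 lower of 14, 1 higher and 0 lower of 8, 0 higher and 1 lower of 17, 0 higher and 0 lower of 11 and 0 higher and 2 lower of 25 (5.33% of 75 genes, beside 4.6% of all genes), and the BMP target Id1 fell by 1.5 on the log2 scale. Between labelled KO and WT, cores with fibroblasts gave 0 higher and 3 lower of 15 tested cartilage matrix genes by the unadjusted rule, namely Col11a2 (-0.88), Col2a1 (-0.62) and Matn3 (-1.82), none with an adjusted p under 0.05. The bone regulator Msx1 was lower too (-0.65), which made 4 of 76 genes (5.26%) beside 2.44% of all genes. The hydrogels gave 0 of the 79 genes by that rule, beside 0.755% of all genes. Cell-free cores gave 0 of 75 by the adjusted rule, and 0 at an unadjusted p under 0.05, beside 339 of 16065 tested genes at that p.

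Between hydrogel and core 42.8% of all genes were called in WT assembloids, and the lists are read against that share. Cartilage matrix genes (82.4% of 17 called) and the BMP pathway (74.1% of 27) lay above it, while cartilage regulators (37.5% of 8), bone regulators (41.7% of 12) and bone matrix genes (47.4% of 19) lay near it. Cartilage matrix genes gave 5 higher and 9 lower of 17 tested, with type II collagen Col2a1 (4.40) and link protein Hapln1 (2.74) higher and Col11a2 (-4.21), Epyc (-2.18) and Cilp (-2.01) lower on the log2 scale. Cartilage regulators gave 1 higher and 2 lower of 8, led by Fgfr3 (2.93), a receptor that restrains growth plate chondrocytes. Bone matrix and mineralization genes gave 6 higher and 3 lower of 19, with osteocalcin gene Bglap2 (4.05, near-identical to Bglap, so reads may be split between them) and Omd (2.95) higher, and Mgp (-1.73) and the osteoblast membrane gene Ifitm5 (-1.66) lower. Bone regulators gave 3 higher and 2 lower of 12, with the homeobox genes Msx2 (4.18) and Dlx5 (2.87) higher.

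The BMP pathway, which drives both programmes, had 14 higher and 6 lower of 27 tested in WT and a median log2 difference of 0.95. Bmp2 (2.08) was higher and Bmp4 (-3.20) and Bmp6 (-1.86) lower in hydrogel. The targets Id1 (2.07), Id3 (1.68), Smad6 (1.68) and Smad7 (1.70) were higher, and so were the antagonists Grem1 (4.47) and Nog (1.62), while Chrd (-1.70), another antagonist, was lower. In labelled-KO assembloids the lists gave 4 higher and 6 lower of 16 (cartilage matrix), 1 higher and 1 lower of 8 (cartilage regulators), 4 higher and 4 lower of 18 (bone matrix), 4 higher and 1 lower of 13 (bone regulators) and 14 higher and 5 lower of 27 (BMP pathway), together 53.7% of 82 genes beside 41.6% of all genes, with Col2a1 at 4.21, Fgfr3 at 2.44, Msx2 at 3.96 and Id1 at 2.35.

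The last question is whether the label of the core went with these genes in the hydrogel around it. Acan was the only member called there by the unadjusted rule, lower around labelled-KO cores (log2 fold change -0.57, SE 0.26, unadjusted p = 0.0497, adjusted p = 1.00 with edgeR, exact permutation p = 0.0606). The choice of gene turned on the setting, since Acan kept its call in 8 of 11 alternative settings while Ibsp passed in 7 and Sp7 in 4. All settings reuse the same libraries, and the setting with no fold threshold keeps the Acan call by construction. These counts therefore do not rank the genes. Some of these settings were chosen after seeing the data. Among the other members, Ibsp (-0.86, SE 0.41), Chad (-1.03, SE 0.66), Sp7 (-0.46, SE 0.29) and Alpl (-0.32, SE 0.19) had negative log2 differences that missed the rule. Spp1 had a positive one (0.22, SE 0.20). The groups overlapped for all of them. Same-numbered hydrogels, which deviated together across genes, were lower in labelled KO in 5 of 6 numbers for Acan, 5 for Ibsp, 5 for Alpl, 5 for Chad and 4 for Sp7. With that number as a block 3 members passed the unadjusted rule, Acan (-0.61), Sp7 (-0.53) and Ibsp (-1.07), with adjusted p no lower than 0.858. That fit also called more of all genes than the unblocked fit.

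These differences leaned on single hydrogels. Labelled-KO hydrogel replicate 1 had the lowest level among all 12 hydrogels of Sox9 (11.3 CPM), Sox6 (16.1), Acan (26.1), Chad (0.506), Runx2 (13.7), Sp7 (4.49), Alpl (208) and Ibsp (10.7), and the highest of Spp1 (27102). It also had the highest macrophage marker sum, 39009.8 CPM. Labelled-KO replicate 5 had the highest Sox9 (53.2 CPM), Sox6 (69.2) and Runx2 (42.7) and the lowest macrophage marker sum, 3296 CPM, where the WT hydrogels ranged over 12548 to 22661 CPM. The part of the macrophage share in these levels was not tested. Without replicate 5, 4 members passed the unadjusted rule, Acan (-0.78), Chad (-1.71), Sp7 (-0.65) and Ibsp (-1.04). Over all genes the calls then numbered 304, against 115 with every library. Without replicate 1 no member passed (Acan -0.45). Ibsp also passed without labelled-KO replicate 4 (-1.14) or WT replicate 5 (-0.997). The Acan call was also lost without any 1 of labelled-KO hydrogel replicates 2, 3, 4 and 6 and WT hydrogel replicates 1, 2, 5 and 6.

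**Figure D5:**
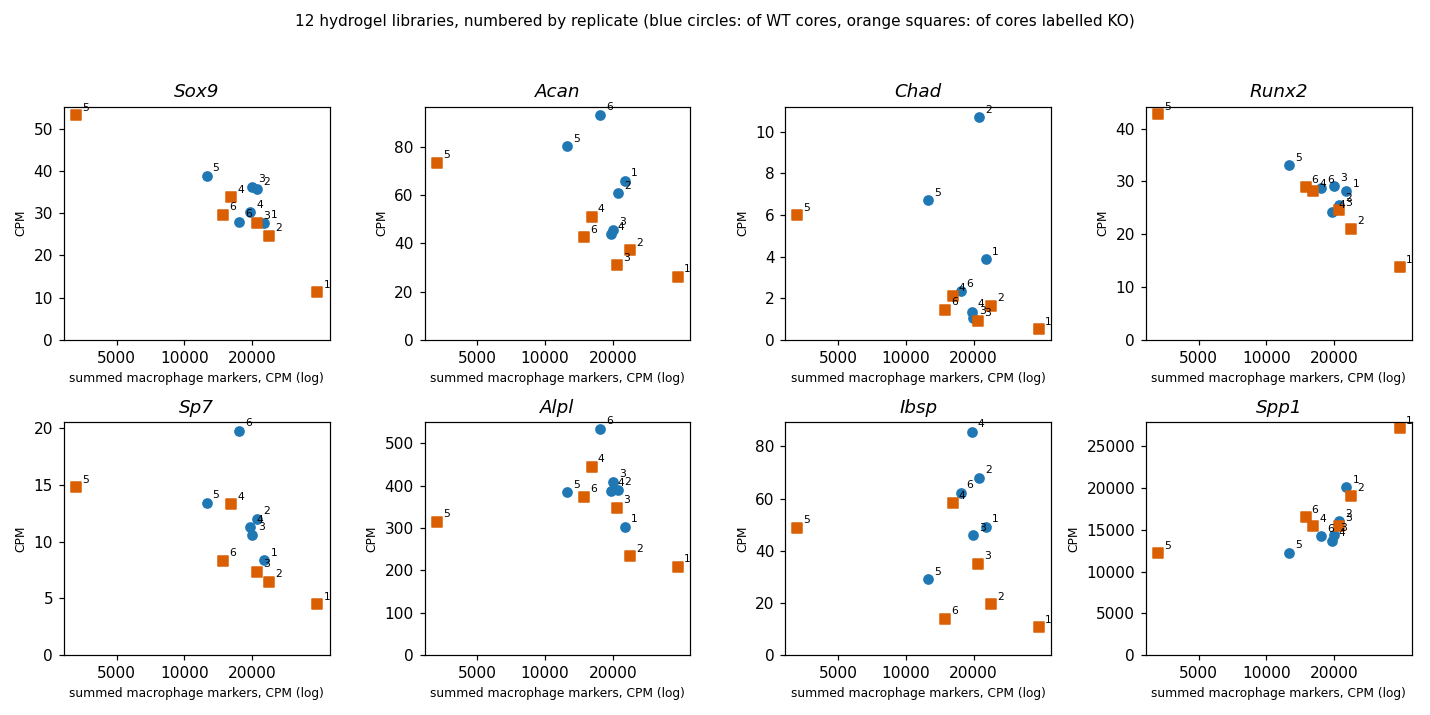
CPM of 8 of the genes in each of the 12 hydrogel libraries against the library's summed macrophage markers in CPM (log axis), with circles for WT and squares for labelled KO, numbered by replicate. Labelled-KO replicate 1 lies at the far right with the lowest values of the 7 genes other than Spp1, and labelled-KO replicate 5 at the far left with the highest Sox9 and Runx2.

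The genes whose log2 CPM followed each member most closely were looked up among named genes with a mean log2 CPM of at least 1, by Pearson's r, within the 20 core and within the 12 hydrogel libraries. These r describe libraries that share depth, groups and mice, and carry no test. In cores Acan was followed by Dsel (0.89) and Bace1 (0.89), Alpl by Pi15 (0.88), Igfbp3 (0.87) and Mmab (0.86), Chad by Coch (0.88), Aldh3a1 (0.87) and Ecm2 (0.85) and Spp1 by Timp1 (0.93), Glrx5 (0.93) and Cs (0.93). In hydrogels Chad was followed by Fmod (0.95), Erc1 (0.93) and Col1a1 (0.92) (Fmod and Col1a1 encode collagen fibril proteins), and Sp7 by Fgfr3 (0.96), Islr (0.93) and Neo1 (0.93). Ibsp was followed there by Dpysl3 (0.95), Ston2 (0.93) and Fam167a (0.90), Alpl by Plpp7 (0.93), Crocc2 (0.93) and Rai2 (0.92), Sox9 by Nfix (0.99), Palld (0.99) and Farp2 (0.98) and Runx2 by Atf7 (0.99), Vamp2 (0.98) and Hoxc5 (0.98). No member was among the 3 genes closest to another.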

How the data were processed

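RNA from 32 samples was measured by ribosome-depleted total RNA sequencing, and the groups were taken from the sample labels. The deposited tables hold expected counts per gene, in whole numbers and not normalized, which the authors made by pseudoalignment (submitters' processing notes name kallisto 0.46.1, GRCm39 and DESeq2; no release of the gene annotation is named there). The study accepted RNA with an integrity number of at least 2. Depth was 20.4 M to 59.9 M counts per library. Counts were scaled by TMM over all 32 libraries and written as CPM. Symbols, from GENCODE M21 (GRCm38), matched 25587 of 25700 gene IDs, and its longest coding transcript gave each length. Promoters are from RefSeq (GRCm38.p6).

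Tests used edgeR 4.0.16 (R 4.3.3) with filterByExpr and quasi-likelihood fits on the groups compared, without a block, for 10 comparisons, plus exact two-sided permutation tests on log2 CPM (prior count 2). The smallest exact p is 0.0286 for 4 against 4, 0.00216 for 6 against 6 and 0.00476 for 6 against 4 libraries. DESeq2 1.42.0 and other settings were alternatives. Counting intervals are exact at 95% and cover counting error only, not the spread between libraries. The fits were tested on simulated data. No 2 libraries of a group agreed within sampling noise. Figures were drawn with matplotlib 3.10.9.

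Members and lists were chosen with earlier results of these data known. The genes named were the 10 members in every comparison and, of each list, those with the lowest p among the calls, plus a few chosen for their known roles after their values were seen. Some genes that this rule would name are not reported here. Col1a1 and Col1a2 stand in both the tendon marker and the bone matrix lists. Same-numbered libraries were taken as pairs where every correlation of their deviations from the group means exceeded 0.1. This held for hydrogels by label (0.263 to 0.603), macrophages against cell-free (0.193 to 0.339) and fibroblasts (0.173 to 0.251), and labelled-KO fibroblasts against cell-free (0.205 to 0.389). Hydrogel and core of an assembloid came from the same mouse per the methods and were paired by the code in their titles (0.233 to 0.319 in WT, 0.228 to 0.417 in labelled KO).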

Additional observations from a re-analysis of the deposited data

Results flagged for a closer look

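Of 61 sets of levels (a gene in a group of 4 or 6 libraries, readable genes), 2 held a library far from the others by Dixon's criterion at 95%, which chance gives in about 1 of 20 groups. Ibsp was at 3.56 CPM in WT core // fibroblasts replicate 4, where the next highest library was at 0.552 CPM, a gap of 0.948 of the group's range. The same library had the highest Sp7 (1.14 CPM) and Alpl (30.5 CPM) of the 20 cores, with a macrophage marker sum of 11742 CPM and an osteoclast marker sum of 474 CPM, both inside the range of the other core groups. Chad was at 5.98 CPM in labelled-KO hydrogel replicate 5, where the next highest library was at 2.13 CPM, a gap of 0.704 of the range. That library also had the lowest macrophage marker sum of the 12 hydrogels, 3296 CPM, and its part in the Chad level was not tested.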

How the results depend on the processing

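Of 28 called results, 28 kept their direction and 20 their call under every alternative chosen with the design that gave the gene a fit, and of 62 not called, 36 kept their direction. A setting that filtered a gene out was passed over for that gene. This was so for Sp7 in hydrogel against core under both labels and Ibsp there in labelled KO. It was also so for Acan with macrophages against fibroblasts. The setting with no fold threshold cannot lose a call. The number of members called moved as follows. Between labels in fibroblast cores (2 members) it was 1 with at least 10 counts in every sample and 0 at an adjusted p. Between labels in hydrogels (1) it was 0 with RLE size factors, 2 with DESeq2, 2 with no filter, 0 with at least 10 counts, 0 at an adjusted p, 3 with the replicate block and 2 with the run code as a block. Settings chosen after seeing the data gave 4 with the macrophage marker sum as a covariate, 3 with the replicate block without pair 5 and 3 without pairs 1 and 5. For macrophages against cell-free (0) it was 1 with DESeq2, 1 with no filter, 3 at an unadjusted p, 1 with the replicate block and 2 with the run block. For fibroblasts against cell-free in labelled-KO cores (0) it was 3 with DESeq2, 4 at an unadjusted p, 1 with the replicate block, 1 with the run block and 1 with all 5 core groups in 1 fit. For the interaction (0) it was 1 at an unadjusted p. For fibroblasts against cell-free in WT cores (3) it was 2 with at least 10 counts, 4 at an unadjusted p, where Alpl passed, 3 with 5 groups in 1 fit, where Alpl passed and Sox9 did not, and 0, with 0 genes in all, once the macrophage marker sum was a covariate, a setting chosen after seeing the data whose sums do not overlap between the groups. Leaving out 1 library gave 0 to 3 members called there, 1 to 2 for labelled KO against WT in fibroblast cores, 0 to 4 for labelled KO against WT in hydrogels, 0 to 1 for macrophages against cell-free and 0 to 1 for fibroblasts against cell-free in labelled-KO cores. The cause of these moves was not tested.

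The results whose sign changed were not called, in the design as fixed or under the setting that changed it. Sox6 was 0.011 for macrophages against fibroblasts with at least 10 counts in every sample, -0.097 for fibroblasts against cell-free in WT cores with the macrophage covariate, and Sox5 -0.011 for labelled KO against WT in hydrogels in the block without pair 5. Log2 ranges that crossed 0 when 1 library was left out were, for fibroblasts against cell-free in WT cores, -0.079 to 0.066 (Runx2) and -0.032 to 0.32 (Sox5). For labelled KO against WT in fibroblast cores they were -0.62 to 0.15 (Chad), -0.30 to 0.21 (Alpl), -0.048 to 0.16 (Sox5), -0.087 to 0.10 (Spp1) and -0.017 to 0.16 (Runx2). For labelled KO against WT in hydrogels they were -0.36 to 0.054 (Sox9), -0.33 to 0.12 (Sox6), -0.27 to 0.058 (Runx2) and -0.0072 to 0.20 (Sox5). For macrophages against fibroblasts they were -0.089 to 0.055 (Sox6) and -0.50 to 0.27 (Chad). For fibroblasts against cell-free in labelled-KO cores they were -0.10 to 0.13 (Runx2), -0.10 to 0.048 (Sox6) and -0.057 to 0.38 (Spp1). For labelled KO against WT in cell-free cores they were -0.23 to 0.15 (Sox5), -0.062 to 0.17 (Runx2), -0.24 to 0.49 (Acan), -0.25 to 0.46 (Chad), -0.044 to 0.088 (Sox6) and -0.046 to 0.85 (Alpl). For the interaction they were -0.12 to 0.26 (Sox5), -0.80 to 0.031 (Chad), -0.11 to 0.12 (Runx2) and -0.061 to 0.17 (Sox9).

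Over all genes the calls for fibroblasts against cell-free in WT cores numbered 423, 784 with DESeq2, 1221 at an unadjusted p, 695 with no fold threshold, 207 with 5 groups in 1 fit and 49 to 640 without 1 library. Fibroblast cores by label gave 392, 668 with no filter, 1428 with no fold threshold and 0 at an adjusted p. Hydrogels by label gave 115, 216 with DESeq2, 296 with no filter, 404 with no fold threshold, 0 at an adjusted p, 212 with the replicate block and 200 with the run block. For macrophages against cell-free they numbered 757, 1196 with DESeq2 and 1694 at an unadjusted p, and for macrophages against fibroblasts 1766, 3200 with no fold threshold and 2706 at an unadjusted p. For fibroblasts against cell-free in labelled-KO cores they numbered 69, 498 with DESeq2, 140 with no filter, 1140 at an unadjusted p, 408 with the replicate block, 246 with the run block, 328 with 5 groups and 4 to 497 without 1 library. Cell-free cores by label gave 0, 14 with DESeq2, 199 at an unadjusted p and 1 with the replicate block. Hydrogel against core gave 6870 in WT and 6688 in labelled KO, with no filter 11480 and 10811, and 11106 in WT with no fold threshold. The interaction gave 0, 1 with DESeq2 and 294 at an unadjusted p.

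Where replicate numbers did not pass the pairing check (0.0659 to 0.423 in WT fibroblasts against cell-free, -0.184 to 0.499 in fibroblast cores by label, -0.00160 to 0.446 in cell-free cores by label), libraries share only a number, and the replicate block gave 3, 2 and 0 members and 511, 451 and 1 genes. The block changed no other call of a member than those given. DESeq2 gave no adjusted p for Ibsp in 5 comparisons and Sp7 in 2. Without TMM scaling, 68 of 70 group levels moved by less than 1 SD, and Sox9 in WT core // cell-free (5.46 CPM) and Sox6 in WT core // macrophages (86.1 CPM) moved by more. Depth limits Sp7 and Ibsp in cores, where most libraries held under 10 counts.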

Other observations

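Il6 itself, which is no member, was at 5.63 to 40.0 CPM in labelled-KO hydrogels against 4.58 to 10.4 CPM in WT hydrogels, groups that overlap, and at 6.51 to 20.5 CPM in labelled-KO core // cell-free libraries, which hold no seeded WT cells, against 1.90 to 11.7 CPM in WT core // cell-free.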
